A study of Homo sapiens with 7 samples.

Results

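The clustered histone genes encode the 5 histone families, H1, H2A, H2B, H3 and H4, and lie in groups on a few chromosomes. They were chosen as the genes whose name in the array files starts with HIST, a cluster number and H, which gave 70 of 36337 gene names and 84 of 50599 probes. H1 holds 6 of these genes, H2A 17, H2B 19, H3 13 and H4 15. All 70 names could be matched to a current symbol, among them the transcribed pseudogenes HIST1H2APS1 and HIST2H2BA. The cells were HCT116 H2B-GFP, a human colon carcinoma line, diploid by its labels, that carries histone H2B fused to green fluorescent protein to mark the chromosomes. They were treated with 10 nM bafilomycin A1, an inhibitor of the vacuolar proton pump, for 30 h. 4 biological replicates were measured on 1 single-colour Agilent array each, and the 3 untreated samples of the line were not analysed here, so every value describes treated cells and no treated-to-untreated ratio or test was computed. The labels name neither the H2B gene in the fusion, nor its promoter, nor whether the line is 1 clone, so RNA of the transgene and of the cell's own H2B genes cannot be told apart. Of 9 colon epithelium markers, 8 were well above background on all 4 arrays, beside 54.2% of all gene names. They were led by KRT19 at 11.81 and KRT18 at 10.60 on the scale below. KRT20 at -0.13 and CDX1 at 0.75 were the dimmest called, and VIL1 was called on no array. Of fibroblast, leukocyte and endothelium markers, 1 of 4, 3 of 4 and 2 of 3 were called, with COL1A1 at 2.91, CD14 at 1.22 and CDH5 at 0.82 as the highest of each.

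Most clustered histone genes are transcribed in S phase, when new DNA has to be packed. Their mRNAs usually carry no poly(A) tail and end instead in a short stem-loop that is bound by SLBP and needed for processing, translation and decay. Several of these genes can also give longer, polyadenylated transcripts. H2A, H2B, H3 and H4 form the core of the nucleosome, and H1 binds the linker DNA between nucleosomes. Most copies of a core histone family encode the same or nearly the same protein, so their probes rest largely on silent differences and on the untranslated ends.

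The stem-loop itself could be read in the probes. The 16-base histone stem-loop consensus was found whole in 7 of the 50599 probes, of which 6 belong to the clustered histone genes. The stretches around it, printed 5′ to 3′ as transcribed with the stem-loop in capitals, show the mature mRNA end that these probes hold.
HIST1H2AI: ggaaccaaaGGCTCTTTTCAGAGCCaccta
HIST1H2BE: aaacccaaaGGCTCTTTTCAGAGCCactca
HIST1H2BF: aatcccaaaGGCTCTTTTAAGAGCCa
HIST1H3H: atacccaaaGGCTCTTTTCAGAGCCaccca
HIST1H4K: tcaacaaaaGGCCCTTTTTAGGGCCcc
HIST2H3A: tatccaaaaGGCTCTTTTCAGAGCCacc
On GRCh37, the build of the files, they lie at chr6:27776416-27776445 on the plus strand (HIST1H2AI), chr6:26184429-26184458 on the plus strand (HIST1H2BE), chr6:26200187-26200212 on the plus strand (HIST1H2BF), chr6:27778285-27778314 on the plus strand (HIST1H3H), chr6:27798954-27798980 on the minus strand (HIST1H4K) and chr1:149824658-149824685 on the plus strand (HIST2H3A). All 6 probes were well above background on all 4 arrays, as were 65 of the 78 member probes without the consensus. On replicates 1 to 4, and on the scale explained next, the probe of HIST1H2AI lay at 2.24, 2.71, 2.80 and 2.55, that of HIST1H2BF at 0.65, 0.84, 1.00 and 0.71 and that of HIST1H2BE at -0.18, -0.84, -0.59 and -0.80. The last is the dimmest of the 6, and it alone was highest on replicate 1. In total 71 of 84 member probes were called on every array, beside 50.7% of all probes.

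Here and below, a level is the log2 background-subtracted signal minus the median of its array, and 0 is thus the brightness of the median probe with a positive signal. Levels of different probes depend on the probe as well as on the RNA, so a higher level of 1 gene over another is a description of signals and not of RNA amounts. Detection of a gene required a probe that the scanner software flagged as well above background on each of the 4 arrays. By this call, 61 of the 70 clustered histone genes (87.1%) were detected, beside 54.2% of all gene names. H3 was detected in full with 13 of 13 genes, H2B with 17 of 19, H2A with 15 of 17, H4 with 13 of 15 and H1 with 3 of 6. The levels of the detected members had a median of 4.76 and ran from -1.35 for HIST2H2BE to 10.74 for HIST1H4C, while the median over all 19689 detected genes was 2.05. 8 members were well above background on no array, namely HIST1H1A, HIST1H1B, HIST1H1T, HIST1H2AL, HIST1H2APS1, HIST1H2BA, HIST2H2BA and HIST2H4A. The single probe of HIST2H4A and 1 of the 2 probes of HIST2H2BA have no coordinates in the files. HIST2H2AA4, HIST2H3A and the HIST2H4 genes exist as near-identical duplicate copies, so their signals are uncertain as to the copy.

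**Figure D1:**
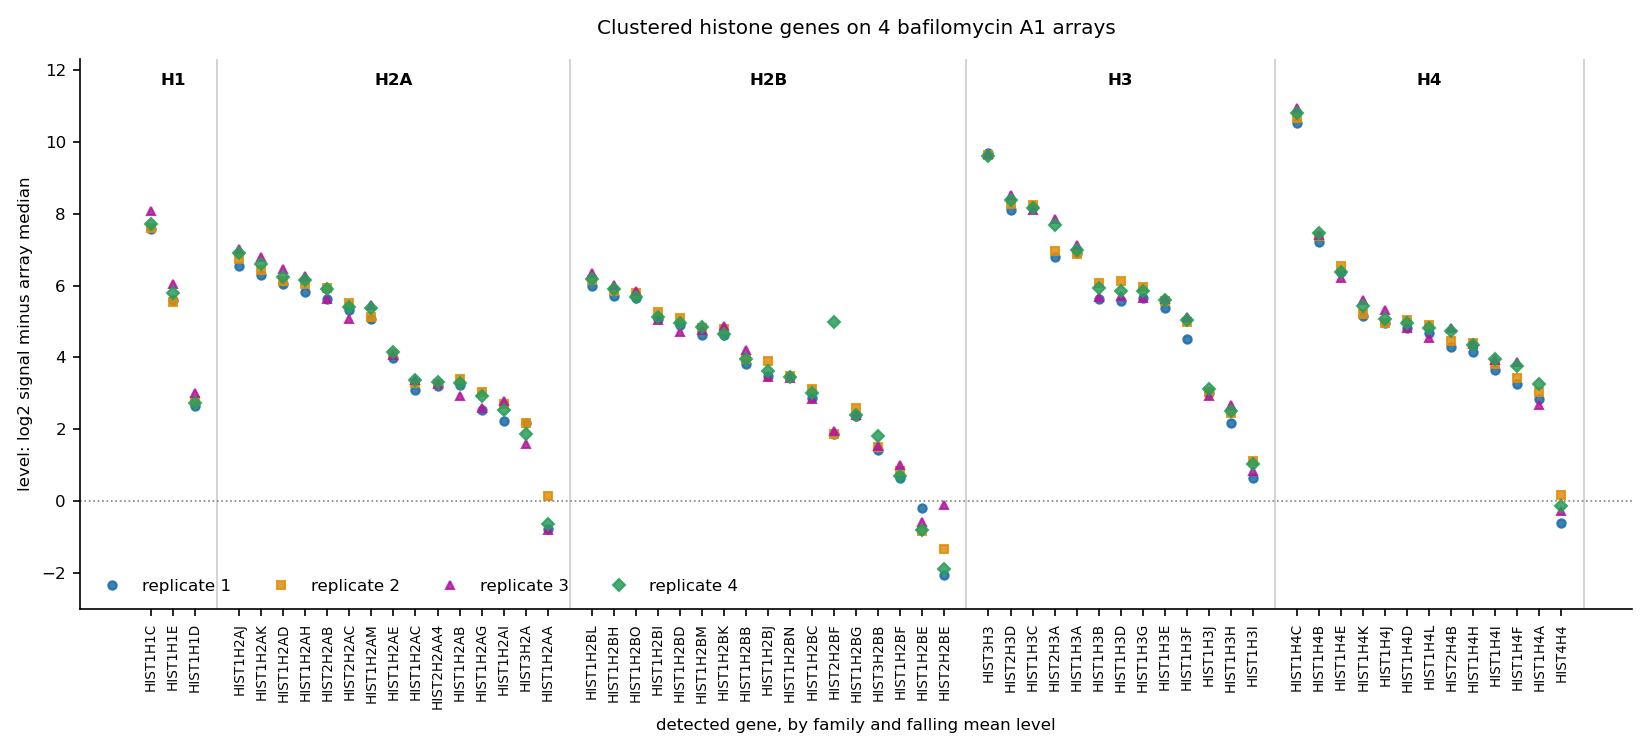
Level of each of the 61 detected clustered histone genes (y axis, log2 signal minus array median) on each of the 4 bafilomycin A1 arrays (symbols), by family and falling mean. The levels span -1.35 for HIST2H2BE to 10.74 for HIST1H4C, the 4 arrays mostly overlap within a gene, and HIST2H2BF stands out with 4.98 on replicate 4.

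Of the linker histones, 3 somatic H1 genes were detected and all 3 were highest on replicate 3. HIST1H1C, which encodes H1.2, gave 7.57, 7.59, 8.09 and 7.72 on replicates 1 to 4 (7.74 ± 0.24, SD, n = 4). Its probe lies at chr6:26056050-26056109. HIST1H1E, encoding H1.4, lay at 5.59, 5.55, 6.05 and 5.78. HIST1H1D, encoding H1.3, lay at 2.63, 2.79, 3.00 and 2.72. The family thus held 1 bright, 1 intermediate and 1 dim detected gene, each with an SD between 0.15 and 0.24. The mean over these 3 genes was 5.27, 5.31, 5.71 and 5.41 on replicates 1 to 4, and the SD of 0.20 fell to 0.07 without replicate 3. The genes of H1.1 and H1.5, HIST1H1A and HIST1H1B, and of the testis H1, HIST1H1T, were not detected.

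In H2A, the brightest pair of genes lies in the third of the 3 groups on chromosome 6. HIST1H2AJ was measured at 6.54, 6.75, 7.02 and 6.91 on replicates 1 to 4, HIST1H2AK at 6.31, 6.44, 6.79 and 6.59, and HIST1H2AD, from the first group, at 6.04, 6.13, 6.45 and 6.24. All 3 were lowest on replicate 1 and highest on replicate 3. HIST1H2AH followed with 5.83, 6.05, 6.28 and 6.16 and the same order of arrays. HIST2H2AB, from the group on chromosome 1, differed in that order, with 5.62, 5.93, 5.63 and 5.90. The largest spread among H2A genes was that of HIST1H2AA, whose product is a testis H2A, with -0.79, 0.13, -0.81 and -0.64 (-0.53 ± 0.45, SD, n = 4), followed by HIST3H2A with 2.18, 2.18, 1.59 and 1.88. These were the dimmest detected H2A genes. The remaining 8 detected H2A genes had means from 2.57 for HIST1H2AI to 5.32 for HIST2H2AC. HIST1H2AL was not detected.

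Taken per gene, H2B had the lowest median level of the families, 3.61, beside 4.07 for H2A, 4.74 for H4, 5.74 for H1 and 5.81 for H3. Taken per detected probe, H2A was lowest at 3.87, followed by H4 at 4.60, H2B at 4.65, H1 at 5.74 and H3 at 5.80. The H2B median over genes includes HIST2H2BF at 2.66, a level that rests partly on undetected probes, while its gene body probes averaged 5.26 and 4.95. The H4 median over genes is the level of HIST1H4L, whose probes averaged 0.65 and 8.83. The brightest H2B member was HIST1H2BL with 5.98, 6.15, 6.35 and 6.19 on replicates 1 to 4. HIST1H2BH reached 5.70, 5.84, 6.02 and 5.92, and HIST1H2BO 5.67, 5.79, 5.84 and 5.67. HIST1H2BI gave 5.06, 5.25, 5.05 and 5.12, and HIST1H2BD 4.91, 5.10, 4.71 and 4.95. Replicate 3 was the highest array in the first 3 of these genes and the lowest in HIST1H2BI and HIST1H2BD. The tightest member of all was also an H2B gene, HIST1H2BN, with 3.46, 3.47, 3.42 and 3.44 (SD 0.02, n = 4). The testis H2B gene HIST1H2BA was well above background on no array. Since the H2B gene of the transgene is not named, none of these levels can be assigned to the chromosomal copy alone. No H2B gene lay above 6.35 on any array, while 3 H3 genes and HIST1H4C lay above 8 on all 4.

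Within H3, the replication-dependent genes HIST2H3D, HIST1H3C, HIST2H3A and HIST1H3A were bright. HIST2H3D gave 8.09, 8.27, 8.53 and 8.37 on replicates 1 to 4, HIST1H3C 8.19, 8.24, 8.12 and 8.16, and HIST1H3A 6.90, 6.88, 7.14 and 7.00. HIST2H3A, measured by a stem-loop probe, gave 6.80, 6.97, 7.86 and 7.69, and replicates 3 and 4 were high and replicates 1 and 2 low. HIST3H3, whose product is known as a testis H3, was the brightest H3 gene, with 9.68, 9.65, 9.68 and 9.61 (9.66 ± 0.04, SD, n = 4), and spanned 1.06-fold. Its probe lies at chr1:228612646-228612705 on the minus strand. HIST1H3F had the second largest SD of the family, 0.28, with 4.50, 4.99, 5.12 and 5.06, and replicate 1 lowest.

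H4 held the brightest clustered histone gene. HIST1H4C gave 10.54, 10.66, 10.95 and 10.81 on replicates 1 to 4 (10.74 ± 0.18, SD, n = 4), with its probe at chr6:26104468-26104527 on the plus strand. HIST1H4B was next with 7.22, 7.38, 7.42 and 7.48, then HIST1H4E with 6.39, 6.53, 6.21 and 6.37. HIST1H4K lay at 5.16, 5.20, 5.60 and 5.44 and HIST1H4J at 4.95, 4.97, 5.32 and 5.07. HIST1H4C stood clear of the next H4 gene on every array. HIST4H4, the single member on chromosome 12, had the largest SD of the detected H4 genes, 0.32, with -0.62, 0.17, -0.27 and -0.14, and HIST1H4F, with 3.26, 3.43, 3.88 and 3.77, an SD of 0.29. HIST1H4G was called on 1 array only, with -3.61, -3.44, -4.77 and 1.35 on replicates 1 to 4, so that replicate 4 was high and the other arrays were not well above background.

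11 members have several probes, and in some of them the probes differ far more than the arrays do. HIST1H4L is measured by a pair of probes of 1 transcript, shown here because the signal of the gene depends on which of them is read; both are printed whole, 5′ to 3′.
HIST1H4L, chr6:27841054-27841113, minus strand: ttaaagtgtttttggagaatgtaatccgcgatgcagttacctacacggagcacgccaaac
HIST1H4L, chr6:27840949-27841008, minus strand: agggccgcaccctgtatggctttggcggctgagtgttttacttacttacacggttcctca
The upstream probe lay at 0.77, 1.07, -0.04 and 0.78 on replicates 1 to 4 and the downstream probe at 8.60, 8.75, 9.11 and 8.84. The difference of 8.18 ± 0.66 (SD, n = 4) is the widest between probes of 1 clustered histone transcript, and the median of 4.74 reported for the gene lies near neither. In HIST1H3H, the probe in the gene body gave 3.95, 4.33, 4.46 and 4.38 and the stem-loop probe, 214 bases downstream, 0.41, 0.58, 0.90 and 0.65. In HIST1H4K, the body probe gave 5.93, 6.09, 6.21 and 6.20 and the stem-loop probe 4.40, 4.32, 4.99 and 4.68. The stem-loop probe was the dimmer of the pair on all 4 arrays in both genes. HIST1H4D had probes 49 bases apart that differed by 0.04 ± 0.09 (SD, n = 4), less than the spread between arrays.

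The letters AATAAA of the polyadenylation signal stood in 5 member probes, of which 4 were called on all 4 arrays. These 4 start 273 to 343 bases into their transcripts, and whether the letters act as a signal there was not tested. Probes far downstream of the short histone mRNA were called in some genes. The third probe of HIST1H2AC, designed on a longer transcript and placed at chr6:26138822-26138881, far beyond the short mRNA, lay at 3.62, 3.66, 3.99 and 3.71, above both probes at the gene itself. The downstream probe of HIST1H2BK, at chr6:27106191-27106250, lay at 4.48, 4.52, 5.12 and 4.49, beside 4.76, 5.04, 4.64 and 4.81 at the gene body. In HIST2H2BE, the probe at the gene body lay at -0.17, 0.10, 0.02 and 0.04 and was called on all 4 arrays, while the probe downstream at chr1:149857064-149857123 was called on replicate 3 alone, with -0.23 there and between -3.94 and -2.76 elsewhere. The level of this gene, the median of both probes, was therefore -2.05, -1.33, -0.10 and -1.90. HIST2H2BF has 4 probes. Both at the gene body were detected, at 5.18, 5.38, 5.20 and 5.28 and at 4.86, 4.92, 5.03 and 4.98. The other two, from a transcript placed near chr1:149397120-149398663, were called on 3 arrays and on none. One of these had a positive signal on replicates 1 to 3 only, so the median of the gene was 1.85, 1.88, 1.94 and 4.98. This was the 1 detected member of 61 in which a single array lay apart by Dixon's ratio, a measure of the gap between an extreme value and its neighbour, which holds for 7.94% of all detected genes.

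**Figure D2:**
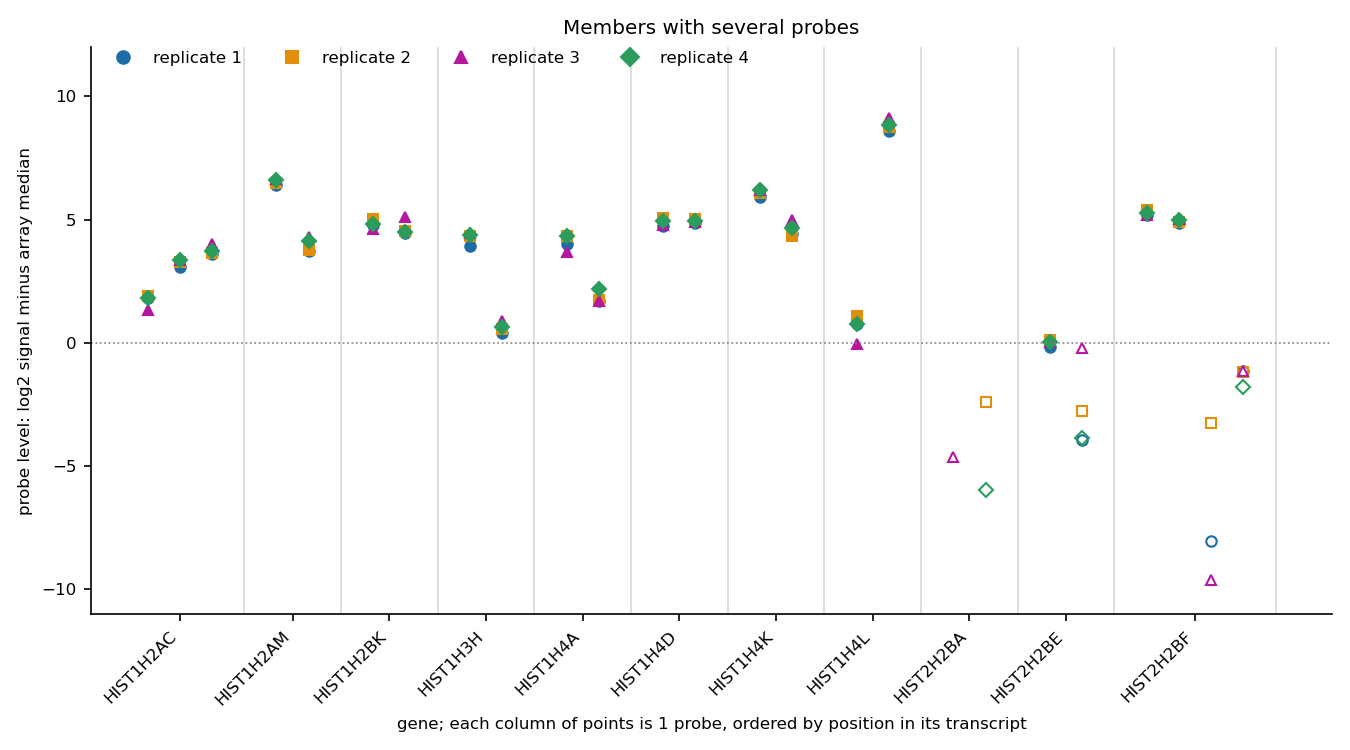
Level of every probe (y axis, log2 signal minus array median) of the 11 members with several probes, on the 4 arrays (symbols), ordered by position in the transcript; filled symbols mark probes well above background on all 4 arrays, open symbols other probes, and signals at or below 0 have no point. The probes of HIST1H4L lie 8.18 apart on average, whereas the arrays of 1 detected probe mostly overlap.

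Many probes of the core histone families resemble each other. Comparing every pair of probes of different members over their best ungapped overlap of at least 30 bases, 53 pairs shared 80% or more of the bases. All 53 lay within a family, and 42 of the 70 genes took part, 7 in H2A, 13 in H2B, 12 in H3, 10 in H4 and 0 in H1. The level of such a gene is uncertain to the extent that RNA of its relatives binds the same probe. 3 pairs are printed with the bases that differ in capitals. They show that probes sharing 80% or more of the overlapping bases gave both similar and unlike signals.
HIST1H2AD: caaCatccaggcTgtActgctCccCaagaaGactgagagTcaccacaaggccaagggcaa
HIST1H2AK: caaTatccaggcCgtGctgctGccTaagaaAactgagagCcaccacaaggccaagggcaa
HIST1H3E: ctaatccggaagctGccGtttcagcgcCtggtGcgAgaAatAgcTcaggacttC
HIST1H3I: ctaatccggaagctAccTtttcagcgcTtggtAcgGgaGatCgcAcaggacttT
HIST1H3C: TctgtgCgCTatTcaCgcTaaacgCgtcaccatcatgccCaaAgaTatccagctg
HIST3H3: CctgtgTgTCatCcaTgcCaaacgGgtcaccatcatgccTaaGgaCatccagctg
HIST1H2AD and HIST1H2AK, identical in 53 of 60 bases, had mean levels of 6.21 and 6.53. HIST1H3E and HIST1H3I, identical in 45 of 54, had 5.54 and 0.90, a difference kept on every array. HIST1H3C and HIST3H3, identical in 44 of 55, had 8.18 and 9.66. What part of the signal of HIST3H3 comes from RNA of other H3 genes was not tested.

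Start regions were available for 63 of the 70 members in the RefSeq promoter table of GRCh38.p14, each with 250 bases before and 50 after the start. The octamer ATTTGCAT, the motif of POU2F1 and a known element of H2B promoters, was searched on both strands. It stood in 14 of 18 H2B and 11 of 15 H2A start regions, in 1 of 11 of H3 and in none of H1 or H4, beside 1.77% of all 35116 promoters. CCAAT was found on either strand in all start regions of H1, H2A, H2B and H3 and in 3 of 13 of H4, beside 34.6% of all promoters. TATAAA was found in 41 of the 63, beside 11.5% of all. The H2A and H2B counts overlap in their sequence, because 11 pairs of an H2A and an H2B gene face away from each other with starts 194 to 248 bases apart, and 8 of these pairs share 1 octamer. The shared windows of 5 pairs are printed with the octamer in capitals, in the direction of the H2B gene or, for HIST1H2BO, of its H2A partner.
HIST1H2AC and HIST1H2BC: catacctcATTTGCATagctctgc
HIST1H2AD and HIST1H2BF: atcacctaATTTGCATaccacagg
HIST1H2AJ and HIST1H2BM: tactcctaATTTGCATaataacat
HIST1H2AM and HIST1H2BO: gaaagctcATTTGCATtaagagga
HIST2H2AC and HIST2H2BE: gagccctaATTTGCATaaggtggt
These windows lie on GRCh38.p14 at chr6:26124034-26124057 on the minus strand, chr6:26199397-26199420 and chr6:27814966-27814989 on the plus strand, and chr6:27893268-27893291 and chr1:149886713-149886736 on the minus strand. Both partners were detected in 10 of the 11 pairs, the exception being HIST1H2BA beside HIST1H2AA. Mean levels of the partners lay close in HIST1H2AC and HIST1H2BC, 3.28 and 2.96, and in HIST3H2A and HIST3H2BB, 1.96 and 1.56. They lay far apart in HIST1H2AD and HIST1H2BF, 6.21 and 0.80, and in HIST2H2AC and HIST2H2BE, 5.32 and -1.35. The H2B partners of these last pairs are read by a stem-loop probe and by a pair of probes of which 1 was called on 1 array only. The octamer of HIST1H3D is the one of HIST1H2AD, as RefSeq gives both genes the same start. Octamers stood in the start regions of 24 of 56 detected members and 2 of 7 others.

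**Figure D3:**
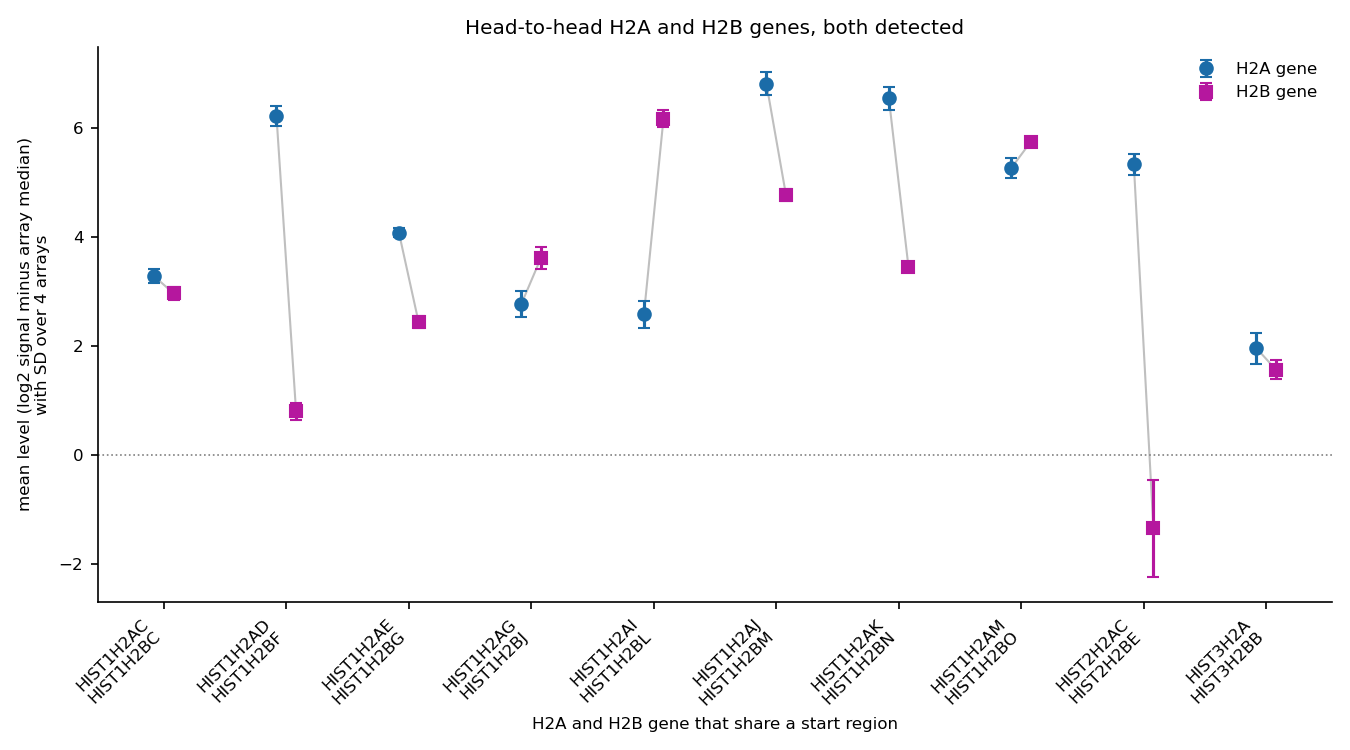
Mean level (y axis, log2 signal minus array median) with SD over 4 arrays of the H2A (circles) and H2B (squares) gene in the 10 head-to-head pairs with both genes detected. Partners lie close in HIST1H2AC and HIST1H2BC and far apart in HIST1H2AD and HIST1H2BF, and levels of different probes are not RNA amounts.

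By position, the members on chromosome 6 fall into 3 groups parted by more than 500 kb between probes. The first, chr6:25726563-26285556, holds 35 members, of which 30 were detected, the second, chr6:27100318-27115305, 5 of 5, and the third, chr6:27775286-27861647, 14 of 16. Median levels of the detected genes were 4.92, 3.84 and 4.92. The HIST2 genes on chromosome 1 were detected in 8 of 10 cases with a median level of 4.95, and the 3 HIST3 genes in all. Beside these counts, the share detected was 87.1% over all 70 members and 54.2% over all gene names.

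Between replicates, the detected clustered histone genes had a median SD of 0.17 on the log2 scale (n = 4), beside 0.21 over all detected genes. The members were also brighter, with a median level of 4.76 beside 2.05, and genes of like level were not compared. The highest array exceeded the lowest by more than 1.4-fold, the limit the study uses for a changed gene, in 18 of 61 members (29.5%), beside 45.6% of all detected genes. These 18 were 2 of 3 in H1, 4 of 15 in H2A, 3 of 17 in H2B, 5 of 13 in H3 and 4 of 13 in H4. Without replicate 1 the count was 8, beside 36.7% of all genes, and without replicate 3 it was 11, beside 21.6%. Whether the members lay below or above all genes depended on the scaling: with the array median over all probes the count was 33 (54.1%), beside 49.8% of all genes, and with normexp and quantile normalization 12 (19.7%), beside 14.1%.

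On the scale used above, the mean level of all 5 families was lowest on replicate 1. Replicate 1 was the lowest array in 42 of 61 members (68.9%), beside 27.5% of all detected genes, and in 10 of 13 H4 and 11 of 15 H2A genes. The family means on replicate 1 lay below their 4-array mean by -0.16 in H1, -0.15 in H2A, -0.15 in H2B, -0.19 in H3 and -0.17 in H4, while the mean over all detected genes deviated by -0.02. In H2B the value was -0.07 without HIST2H2BE and HIST2H2BF, whose medians include probes not detected on all 4 arrays, and the SD of the family mean was 0.05 in place of 0.11. For H3 the family means were 5.56, 5.80, 5.81 and 5.83, so that replicate 1 lay apart from the other arrays, and the SD of 0.13 fell to 0.02 without it. On replicate 4 the clustered histone genes deviated by 0.08, or by 0.04 without HIST2H2BF, and all detected genes by -0.08. Replicate 3 was the highest array in 27 of 61 members (44.3%), beside 48.4% of all genes, and in 3 of 3 H1 genes. The counts per array depend on the scaling. After normexp background correction and quantile normalization, replicate 1 was lowest in 23 members (37.7%), beside 25.9% of all genes, and replicate 3 highest in 5 (8.20%), beside 36.1%. The deviation of the members less that of all genes was -0.15 on replicate 1 and 0.16 on replicate 4, and -0.08 and 0.13 after quantile normalization. On replicate 3 it was -0.01, and -0.06 after quantile normalization. The mean over the members was then as low on replicate 3 (-0.076) as on replicate 1 (-0.071). The share of all spots well above background was 60.4%, 58.9%, 58.5% and 55.6% on replicates 1 to 4, the other way round from the order of the histone means on replicates 1 and 4. All arrays lay on 1 slide, so no batch could be tested, and the part of labelling in these shifts was not tested.

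**Figure D4:**
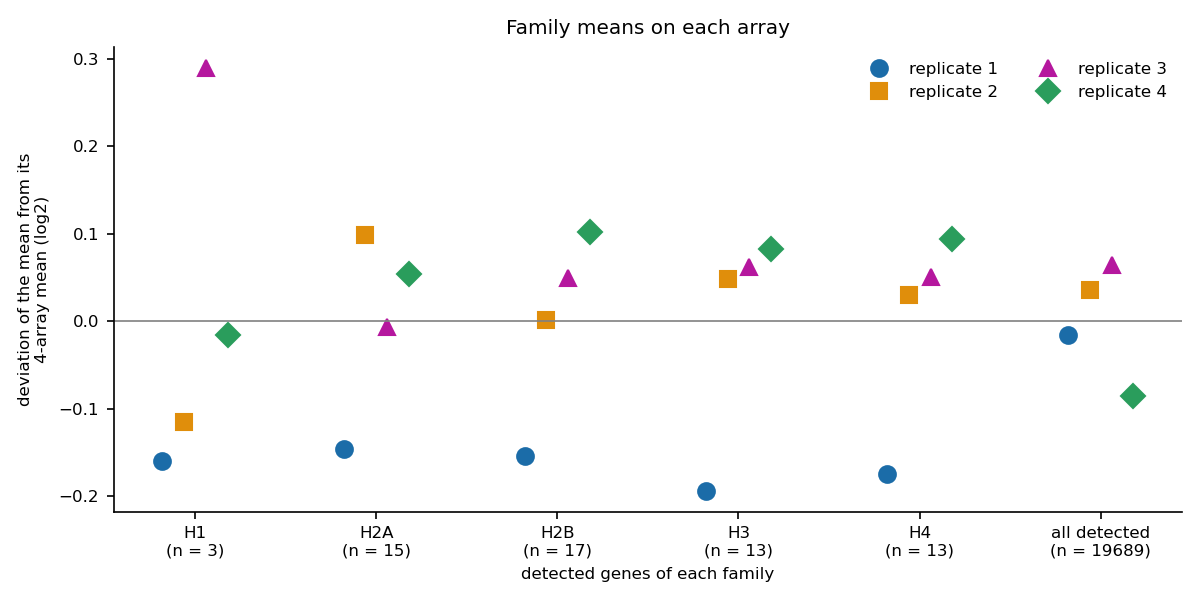
Deviation of the mean over detected genes from its 4-array mean (y axis, log2) on each array (symbols) for the 5 histone families and for all 19689 detected genes. Replicate 1 is the lowest in all families, between -0.15 and -0.19, and replicate 3 is the highest in H1 at 0.29.

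Within single histone transcripts, replicate 3 differed in the balance of probes. 9 member transcripts have at least 2 detected probes, and the downstream minus the upstream level was highest on replicate 3 in 8 of the 9 pairs, beside 60.7% of 3179 such pairs on the whole array and 49.1% of 957 pairs no farther apart than 519 bases. In HIST1H4L, the difference was 7.83, 7.68, 9.15 and 8.07 on replicates 1 to 4, in HIST1H2BK -0.29, -0.52, 0.49 and -0.32, and in HIST1H2AC 1.26, 1.38, 2.01 and 1.54. In HIST1H3H, the exception, it was -3.54, -3.75, -3.56 and -3.73. HIST1H4D was counted for replicate 3 by a near tie, 0.1139 beside 0.1119 on replicate 1. The probes of these pairs start only 26 to 519 bases apart. With a probe length of 60 bases, those of HIST1H4A, HIST1H4D and HIST1H2AC, 26, 49 and 58 bases apart, overlap each other. Across the 71 detected member probes, which share arrays and partly sequence, the deviation on replicate 3 had a Spearman correlation of 0.43 with the probe's start in its transcript and of 0.05 with its GC content. Across all 25661 detected probes the values were 0.30 and -0.44. Their part in the pattern was not tested.

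**Figure D5:**
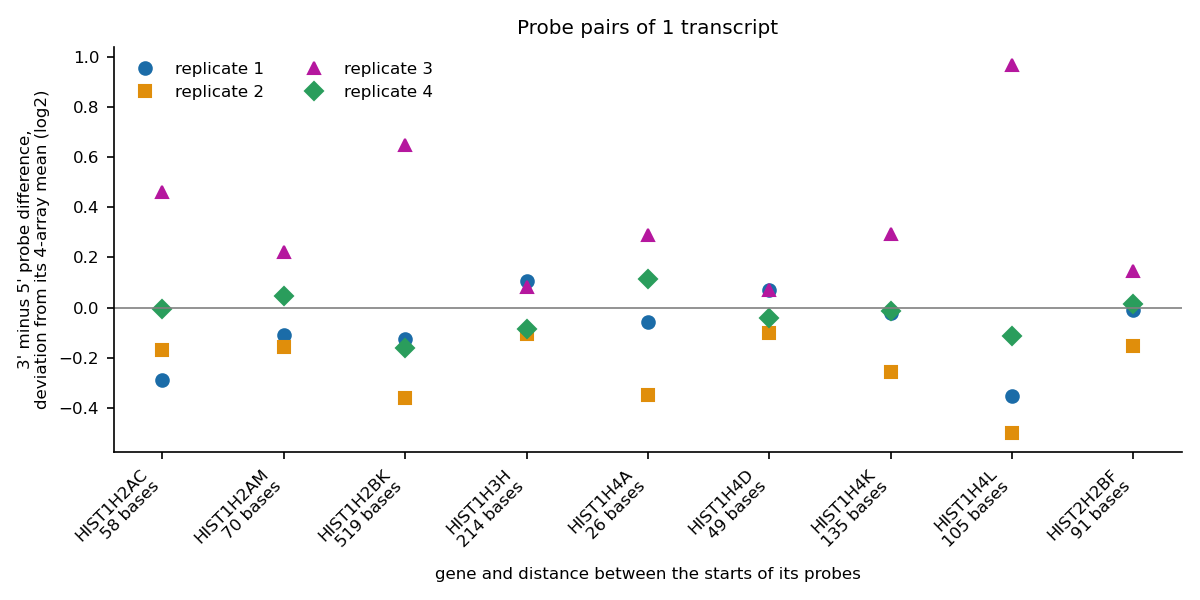
Downstream minus upstream probe level, as deviation from its 4-array mean (y axis, log2), for the 9 transcripts with detected probe pairs and the distance between probe starts (x axis), on each array (symbols). Replicate 3 is the highest in 8 of the 9, with 0.96 in HIST1H4L, nearly level with replicate 1 in HIST1H4D, and slightly below it in HIST1H3H.

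The genes that make and process histone mRNA were mostly detected. Of 23 regulators and processing factors, 21 were detected, with a median level of 3.43, a median SD of 0.21 and 10 spanning more than 1.4-fold, beside the 54.2% detected, the SD of 0.21 and the 45.6% spanning over all genes. SYMPK, the scaffold of the cleavage complex, was the brightest with 8.03, 7.98, 7.86 and 7.91 on replicates 1 to 4. SLBP, the stem-loop binding protein, gave 6.41, 6.70, 6.89 and 6.46. UPF1, which acts in histone mRNA decay, gave 5.77, 5.96, 6.06 and 5.88, ERI1, an exonuclease that trims the stem-loop end, 5.63, 5.86, 6.14 and 5.79, and CCNE1, the cyclin E partner of CDK2, 5.51, 5.63, 5.89 and 5.73. Of the whole list, 10 of the 21 detected genes were highest on replicate 3, beside 48.4% of all detected genes. NPAT, the coactivator of histone transcription, was dim at -0.60, 0.12, 0.18 and -0.39. LSM11, a subunit of the U7 particle that guides the cleavage, was called on 2 arrays, and CPSF2, whose product belongs to the cleavage complex, on none, while its partner CPSF3 gave 4.11, 4.17, 4.60 and 4.17.

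All 15 histone chaperones were detected, beside 54.2% of all gene names, with a median level of 4.97 and a median SD of 0.23. SSRP1, a subunit of FACT, gave 8.38, 8.52, 8.69 and 8.47, the nucleosome assembly gene NAP1L1 7.28, 7.50, 7.78 and 7.31, and NASP, a chaperone of H3 and H4, 6.62, 6.60, 6.77 and 6.64. DAXX, which acts on the variant H3.3, lay at 5.59, 5.69, 5.46 and 5.46, and CHAF1B of the chromatin assembly factor at 4.94, 5.18, 5.28 and 5.12. 11 of the 15 were highest on replicate 3, beside 48.4% of all detected genes.

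Of 20 histone variant genes that are expressed outside S phase or in germ cells, the array names 17. Of these, 14 passed the detection call, beside 54.2% of all gene names. Their median level was 3.15, beside 2.05 over all detected genes. H3F3A, encoding H3.3, gave 9.50, 9.60, 9.93 and 9.65 on replicates 1 to 4, H2AFZ, encoding H2A.Z, 8.16, 8.31, 8.36 and 8.26, and H1F0, encoding the linker variant H1.0, 7.25, 7.15, 7.56 and 7.09. H3F3B, the other H3.3 gene, lay at 6.65, 6.78, 6.69 and 6.59 and H2AFX at 5.74, 5.98, 6.34 and 6.13. H1FOO, H2AFB3 and H2BFWT, known from germ cells, were called on no array, while H1FNT, H2AFB2 and H2BFM, also known from germ cells, were detected at mean levels of 1.28, -0.50 and -0.38. By name, H2AFB1, H2BFS and H3F3C were not found. The 14 detected variant genes gave signals in the same range as the clustered genes, from -0.50 to 9.67 beside -1.35 to 10.74. The poly(A) state of their RNA was not measured. The mean over the 14 variants had an SD between arrays of 0.07, beside 0.11 for the 61 clustered genes, and deviated on replicate 1 by -0.06, beside -0.16. With only probes well above background on all 4 arrays, the clustered genes gave 0.10 and -0.14. The same values were 0.13 and -0.12 for the chaperones, 0.11 and -0.02 for the regulators and processing factors, and 0.07 and -0.02 over all detected genes.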

How the data were processed

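RNA of 4 cultures was labelled with Cy3 from 100 ng per sample and hybridised to 1-colour arrays, all on 1 slide. The authors deposited the scanner output of Agilent Feature Extraction 10.7.3.1, with background-subtracted and processed intensity values and presence and outlier flags for each spot. The 3 untreated samples were not analysed here.

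From these files, control spots and spots flagged as outliers were left out. The level was log2 of a positive background-subtracted intensity minus the array median, taken per gene as the median of its probes, with mean and SD over 4 arrays. The flag for well above background gave the detection calls. There is 1 group, so no test between groups was made, and the number of arrays limits the precision. Named in full were, per family, the 5 brightest detected genes, the 2 with the largest SD and genes whose probes disagreed, and per list the 5 brightest and all undetected genes. Other genes given with values were chosen after their values were seen. The members and lists were chosen with earlier results of these data known. Alternatives were another signal and scaling, normexp (limma 3.58.1, offset 50) with quantile normalization, other filters on probes and spots, other calls and leaving out each array. The scripts, run with Python 3.11.15 and R 4.3.3, were tested on simulated data.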

Additional observations from a re-analysis of the deposited data

Results flagged for a closer look

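In 7 of 161 values tested (gene levels, probe levels and family means), 1 array lay far from the other 3 for its distance to the nearest of them, where chance alone marks about 5%. HIST2H2BF stood at 4.98 on replicate 4, while the other arrays gave 1.85 to 1.94. Its probe at chr1:149397120-149397179 fell out on the same array with -1.77, while the other arrays gave -1.17 to -1.15. The downstream probe of HIST1H2BK stood at 5.12 on replicate 3, with the others between 4.48 and 4.52. The downstream probe of HIST1H4A stood at 2.17 on replicate 4, with the others between 1.68 and 1.73. The mean over the detected H3 genes was 5.55 on replicate 1, below the 5.80 to 5.83 of the other arrays. Of the processing factors, CPSF3 stood at 4.60 on replicate 3 against 4.11 to 4.17, and of the cell cycle regulators, CDK2 at 1.13 on replicate 1 against 1.56 to 1.64. In HIST2H2BF, 1 of 4 probes had no positive signal on replicate 4, which moves the median over probes, while both probes at the gene body stayed between 4.86 and 5.38 on all arrays. The cause was not tested for the other values.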

How the results depend on the processing

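Of 209 values for 21 results under the alternatives, 188 stayed close to the reported value. For counts, this meant within 1.5 times the reported count. For SDs, it meant a shift no larger than the SD of the values with each replicate left out. Those values are themselves among the 209. The number of detected clustered histone genes stayed between 59 and 63 under all alternatives and at 61 without any single array. The array median over all probes raised the median SD from 0.17 to 0.223, the genes spanning more than 1.4-fold from 18 to 33, and the SD of the family mean to 0.177 in H2A, 0.204 in H2B, 0.212 in H3 and 0.207 in H4. It also moved the mean deviation of all detected genes on replicate 4 from -0.08 to 0.05. For H2B, that SD was 0.11, and it was 0.0563 with the processed signal minus its 75th percentile, 0.0656 with normexp and quantile normalization, 0.0573 with only probes well above background on all 4 arrays, and 0.0537 without HIST2H2BE and HIST2H2BF. Leaving out each replicate in turn gave median SDs from 0.133 to 0.198 and from 8 to 16 genes spanning more than 1.4-fold. The SD of the family mean then ran from 0.0733 to 0.247 in H1, lowest without replicate 3, and, lowest without replicate 1, from 0.0527 to 0.13 in H2A, 0.05 to 0.135 in H2B, 0.0171 to 0.154 in H3 and 0.0326 to 0.144 in H4. Genes lowest on replicate 1 fell from 42 to 23 with normexp and quantile normalization, and genes highest on replicate 3 from 27 to 14 with the processed signal minus its 75th percentile and to 5 with normexp and quantile normalization. Each of these settings changes the signal and the scaling together, and the cause was not tested. Both counts, the count of probe pairs highest on replicate 3 and the count of detected chaperones were added after the data were seen, as were leaving out spots with an outlying background and leaving out HIST2H2BE and HIST2H2BF. Among 30 named levels, 30 moved by more than their SD with the processed signal minus its 75th percentile, 27 with normexp and quantile normalization and 29 with the array median over all probes, since each of these resets the zero of the scale. HIST2H2BF rose from 2.66 to 5.10 when only probes detected on all 4 arrays were used, and HIST2H2BE from -1.35 to -0.00. No paired analysis was possible because only 1 group has values. Signal over background limits the dim genes: the share of spots well above background was 55.6% on replicate 4 and 60.4% on replicate 1, and no spot was saturated.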
